A study of Mus musculus with 12 samples.

Results

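The glycolysis and hypoxia response genes described here are 35 genes chosen by symbol from the 54532 genes of a mouse colonoid RNA-seq table: the glycolytic enzymes, the carriers that bring glucose in and take lactate out, the HIF transcription factors with their prolyl hydroxylases, and established HIF target genes. All 35 were found. Aldoa has a second entry of the same symbol, so that 36 entries were read. After a filter that asked for at least 1 FPKM (fragments scaled by gene length and by a library size that the submitters' scaling sets) in at least 3 of the 12 libraries, 12740 genes were tested, among them 33 of the members. Eno2 and Ldhb were under the filter, with no library above 9 fragments for either gene.

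Glycolysis splits glucose to pyruvate in a preparatory phase that spends ATP and a payoff phase that returns it, and lactate dehydrogenase turns pyruvate into lactate for export. The hypoxia-inducible factors HIF-1 alpha (Hif1a) and HIF-2 alpha (Epas1) are marked for degradation by prolyl hydroxylases, which need oxygen and ferrous iron, and HIF-1, when stable, raises transcription of most glycolytic genes. In the colon the epithelium next to the lumen is physiologically hypoxic, and HIF signalling is active there.

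The study profiled colonoids, organoids grown from colonic epithelial cells of mice aged 8 to 12 weeks, by poly(A) RNA-seq. Control colonoids carried Hmox1 fl/fl, that is, floxed alleles of the gene for heme oxygenase-1, the enzyme that breaks heme down and frees its iron. Colonoids labelled KO carried Hmox1ΔIEC, in which the same floxed alleles are met by Cre recombinase under the Vil1 promoter, so that deletion depends on Cre activity in epithelial cells. Each genotype received vehicle or hemin at 200 µM for 24 h.

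These 4 groups of 3 libraries are called control vehicle, control hemin, KO vehicle and KO hemin. All were cultured in L-WRN conditioned medium. The genotype of replicate 3 of KO hemin is spelled differently in its label, as fl/fl with Vil1 Cre. The labels do not say whether the 3 libraries of a group came from separate cultures or animals, so the p-values measure spread between libraries that may be technical replicates. In bulk RNA, fewer cells of a type and less RNA per cell cannot be told apart.

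Hmox1 was read first as a check of the labels. It measured 7.62, 6.85 and 7.90 FPKM in control vehicle, 503, 483 and 382 in control hemin, 3.14, 2.11 and 2.31 in KO vehicle and 1279, 1392 and 1271 in KO hemin. The 4 groups did not overlap. Under vehicle the colonoids labelled KO were lower (-1.27 ± 0.12, adjusted p = 1.25e-05), but under hemin they were higher than control (1.53 ± 0.12, adjusted p = 3.29e-06), which goes against the label. The paper also gives other assays of these genotypes. Under hemin its KO colonoids had more cell death than control and, at a lower hemin dose than that used here, less 4-HNE, a lipid peroxidation product. Its RT-qPCR of Hmox1 in sorted colonic epithelial cells of both genotypes is shown with a mark for not detected. Gene-level counts do not show which exons were read, and the genotype is therefore written as labelled KO throughout.

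Fragments recovered from the table ranged from 11648801 to 25101868 per library. The median was 15962169 in control vehicle, 11859124 in control hemin, 15537521 in KO vehicle and 15479954 in KO hemin. Control hemin was the shallowest group, with no library above 11935604, and the part of depth in the results was not tested. The FPKM are not divided by these sums. The sum was 0.963 to 0.968 times the library size that the FPKM imply in control vehicle, 1 to 1.02 times in control hemin, 0.922 to 0.926 times in KO vehicle and 1.06 to 1.07 times in KO hemin, and a median-of-ratios factor computed on the FPKM was the same in all 12 libraries. The median of all genes in a comparison is therefore held near 0 by the scaling. Each comparison is also given with FPKM by summed fragments, an alternative chosen after seeing the data. Among the tested members, the second Aldoa entry aside, counting error weighs most on Adm, with 5 to 67 fragments per library. The second Aldoa entry had fewer, from 0 to 33.

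Some libraries stood apart from their group. Gm23935, a predicted gene of miRNA biotype, took 16.8% of the summed FPKM in control vehicle replicate 1, 29.0% in control hemin replicate 1 and 21% in KO hemin replicate 2. In the other 9 libraries its share lay between 1.18% and 2.81%. Counts of members are therefore given with these 3 libraries and without them, a choice made after seeing the data. The medians of the members' deviations from their group means were -0.16 in KO hemin replicate 2, 0.11 in KO hemin replicate 1 and 0.10 in control hemin replicate 1 (log2). By another measure, the chi-square per degree of freedom between the recovered fragments of replicate pairs, control hemin replicate 3 stood farthest off, at 36.11 against replicate 1 and 43.15 against replicate 2, which were at 22.85 from each other. The rich library gave 18.33 and 17.43 in control vehicle and 30.64 and 28.87 in KO hemin, and the 5 remaining pairs lay between 1.932 and 3.514. Control hemin replicate 3 was left out alone, among the fits without 1 library.

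The epithelial identity of the libraries was checked on marker lists. All 10 epithelial markers and all 6 colonocyte markers passed the filter, led by Krt8 at a mean of 3225 FPKM and Car1 at 2803 FPKM. Of 8 fibroblast markers 1 passed the filter (Pdgfrb, mean 0.926 FPKM), and Col1a2, Dcn, Lum and Thy1 had at most 3 fragments in every library. No endothelial marker of 5 passed, the most abundant being Pecam1 at 0.0549 FPKM, and Kdr and Emcn had at most 3 fragments. Of 8 immune markers 1 passed, Cd68 at 2.79 FPKM, while Adgre1 and Cd3e had at most 3 fragments.

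Marker levels moved with the groups. Summed epithelial markers were 8760, 9558 and 9763 FPKM in control vehicle, 9790, 10850 and 8605 in control hemin, 6288, 6305 and 6344 in KO vehicle and 9491, 8123 and 9199 in KO hemin. The colonocyte sum was 2759, 2747 and 2524 FPKM in control vehicle, 5345, 4775 and 7471 in control hemin, 2104, 2119 and 2059 in KO vehicle and 4620, 3896 and 4189 in KO hemin. This sum is mostly Car1 (4420 FPKM of it in control hemin replicate 1). The 8 proliferation genes, led by Pcna at 75.3 FPKM, summed to 299, 272 and 278 FPKM in control vehicle, 101, 109.5 and 118 in control hemin, 382, 380 and 381 in KO vehicle and 178, 200.3 and 186 in KO hemin.

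Fold changes are log2 differences of FPKM + 1, which understates changes of genes near or under 1 FPKM, and errors are standard errors from a linear model over all 12 libraries. That model pools the spread of all groups, although the replicate chi-squares given above were lower in KO vehicle than in control hemin. "Passed" means a Benjamini-Hochberg adjusted p under 0.05 over the 12740 genes. The comparisons share groups, so their values stand side by side and are not independent.

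The calls of the marker genes stand beside the shares of all genes tested, of which 23.2% rose and 26.7% fell in control under hemin, 29.9% and 30.4% in the labelled KO, 19.7% were higher and 14.7% lower in the labelled KO under hemin and 17.4% and 16.8% under vehicle, with an interaction above 0 for 13.3% and below 0 for 10.5%. Of 10 epithelial markers, 5 rose and 0 fell in control under hemin (median 0.15), and 8 rose and 2 fell in the labelled KO (median 0.67). Between genotypes 1 was higher and 2 were lower under hemin, near the shares of all genes (median -0.0096), and 0 and 5 under vehicle (median -0.34). Their interaction was above 0 for 5 and below 0 for 0 of those that passed (median 0.37). The 6 colonocyte markers did not move together. In control under hemin Car1 (1.18), Slc26a3 (0.97) and Ceacam1 (0.91) rose and Car4 (-0.68) and Aqp8 (-2.00) fell, and in the labelled KO Car1 (1.11) and Ceacam1 (1.63) rose and Car4 (-3.43) and Slc26a3 (-0.73) fell. Under hemin 2 were higher in the labelled KO (Aqp8, 5.73, and Car4, 1.61) and 3 lower, and under vehicle 3 were higher (Car4, 4.36, Aqp8, 3.25, and Slc26a3, 1.32) and 2 lower. The interaction passed for Aqp8 (2.48), Ceacam1 (0.71), Slc26a3 (-1.71) and Car4 (-2.75). All 8 proliferation genes fell in both hemin responses (medians -1.49 and -1.34), with 8 higher in the labelled KO under hemin (median 0.62), 7 under vehicle (median 0.39) and an interaction above 0 that passed for 3. Cd68, the 1 immune marker tested, rose in the labelled KO under hemin (1.14) and was lower in the labelled KO under vehicle (-0.82). It did not pass in control under hemin (0.37), between genotypes under hemin (-0.055) or in the interaction (0.77). The part of these shifts in the members' changes was not tested.

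As a set, the members were lowest in control hemin. Ranked by group mean, 21 of 33 tested members had their lowest level in control hemin, where 26.5% of all genes tested did. No member had its highest level there, against 23.6% of all genes. The highest level was in control vehicle for 16 members (17.1% of all genes), in KO hemin for 13 (27.7%) and in KO vehicle for 4 (31.7%). The summed FPKM of the members was 4061, 4205 and 4366 in control vehicle, 3002, 2796 and 2407 in control hemin, 3354, 3429 and 3407 in KO vehicle and 4583, 3802 and 4484 in KO hemin. The control hemin libraries lay below those of every other group.

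**Figure D1:**
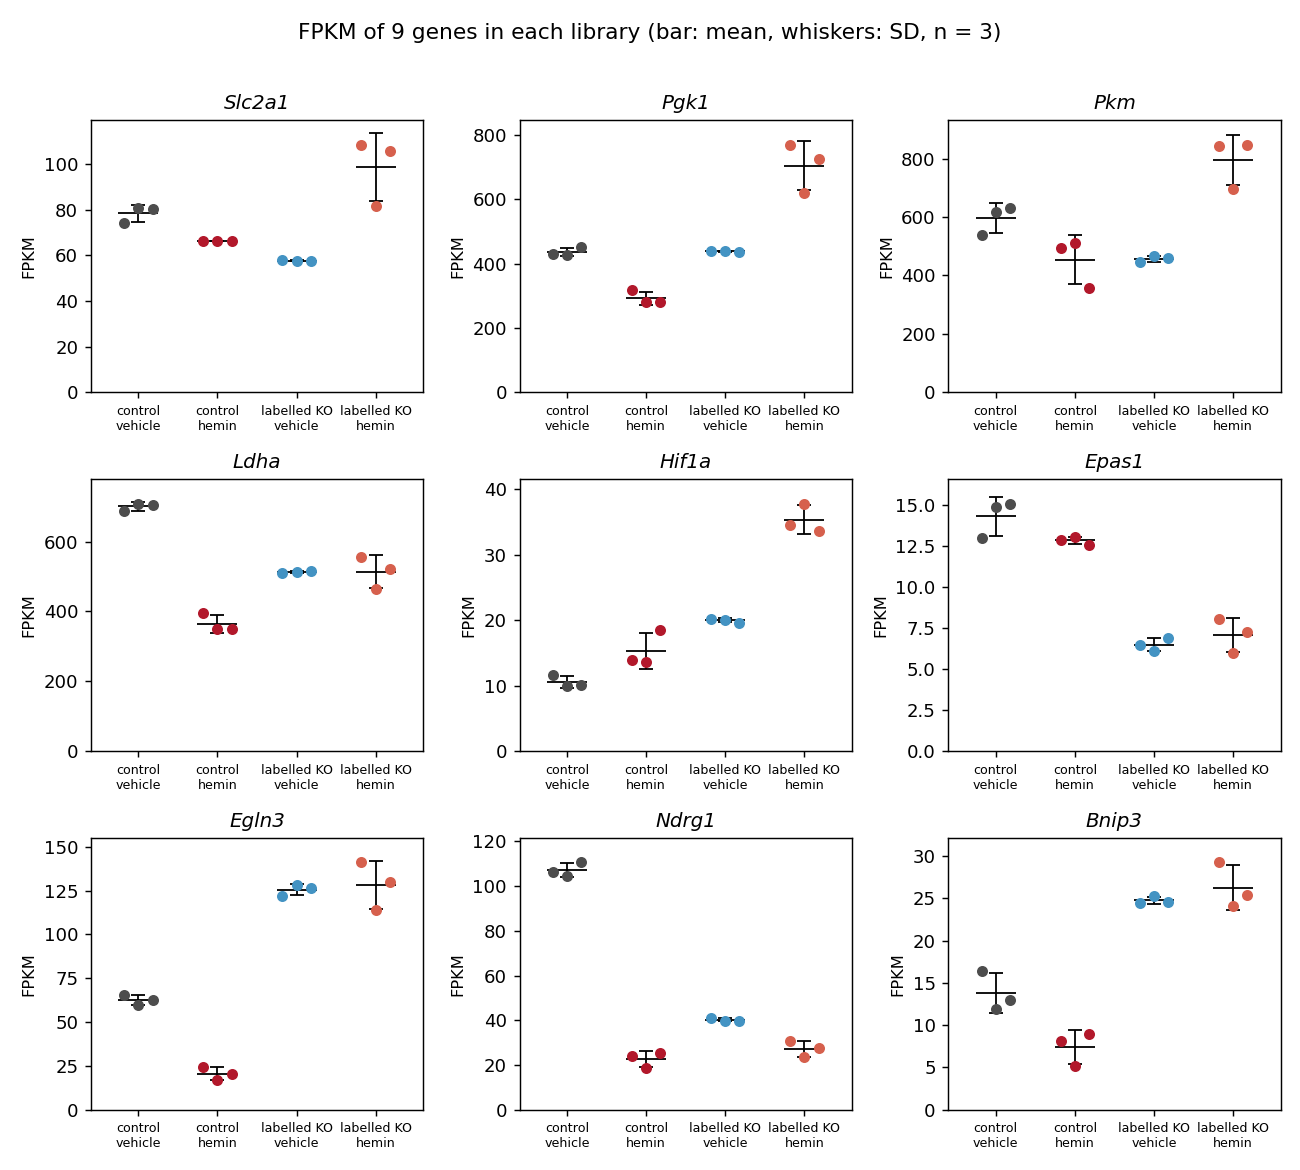
Levels (FPKM, each gene on its own axis starting at 0) of 9 members in the 12 libraries, with a point for each library, a bar at the group mean and whiskers for the SD of 3 libraries, for control vehicle, control hemin, KO vehicle and KO hemin. Egln3 is lowest in control hemin (16.9 to 24.2 FPKM) and highest in KO hemin and KO vehicle (114 to 141 FPKM).

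The first comparison asks how colonoids with floxed Hmox1 alleles, the control, responded to hemin. Of the 33 tested members, 24 fell, where 26.7% of all genes tested fell, and 2 rose (Hif1a and P4ha1), where 23.2% of all genes rose. The members' median log2 fold change was -0.53, against -0.013 over all genes. The falls included glycolytic enzymes (Hk2, Tpi1, Pgam1, Eno1), lactate dehydrogenase A, the lactate carrier Slc16a3 and HIF targets (Vegfa, Ankrd37, Ndrg1). Past 2-fold, 5 members passed, all downward (Hk2, Slc16a3, Egln3, Ankrd37 and Ndrg1), where 8.11% of all genes passed at that size in either direction. Without the added 1 FPKM, Adm would join them (ratio of mean FPKM 0.201). Slc2a1, Hk1, Pfkm, Gapdh, Pdk3, Epas1 and Higd1a did not pass. With only the groups compared, 1 member rose and 21 fell, since Gpi1, Pfkfb3, Aldoa, Pkm and P4ha1 no longer passed and Slc2a1 did.

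Expressed as TPM, in which every library sums to the same total and which counts the share taken by Gm23935 in the total, the median of all genes in the first comparison moved to -0.19, and 21.4% of the genes that passed rose, compared with 46.4% by FPKM. By TPM 22 members fell and 0 rose in the limma test, nor did any rise at an unadjusted p under 0.05 (by limma-voom on recovered fragments 2 rose). Relative to all genes the members' median was -0.575 by TPM and -0.52 by FPKM. The calls that ended by TPM were Gpi1 (adjusted p = 0.085), Pfkfb3 (0.0869), Hif1a (0.204) and P4ha1 (0.779), and no call turned its sign. With Gm23935 removed before the TPM were formed, 35.2% of the genes that passed rose, and 1 member rose and 26 fell. Without the 3 libraries rich in Gm23935, 1 member rose and 24 fell with a median of -0.68. There Pfkfb3 (adjusted p = 0.0611) and P4ha1 (0.208) no longer passed and Slc2a1 did (0.00618). With FPKM by summed fragments the median of all genes was -0.070, 39% of the genes that passed rose, and 1 member rose and 25 fell. P4ha1 no longer passed (0.0669), and Slc2a1 fell (-0.31, adjusted p = 0.0173).

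Fits without 1 library were read only where that library belonged to a group compared, 6 fits for each comparison of 2 groups. In these, 22 of the 26 calls in the first comparison held in every fit and 4 did not. Fewer samples are left in these fits, and the log2 fold changes of the 4 kept their direction, at -0.35 to -0.19 for Gpi1, -0.50 to -0.24 for Pkm, -0.24 to -0.18 for Pfkfb3 and 0.20 to 0.31 for P4ha1. Gpi1 did not pass without control vehicle replicate 2 (adjusted p = 0.106), without control vehicle replicate 3 (0.122) or without control hemin replicate 3 (0.107). Pkm did not pass without the same libraries (adjusted p = 0.0785, 0.0861 and 0.0512). Pfkfb3 passed only with all 12 libraries or, among these fits, without control hemin replicate 1 (highest adjusted p 0.097, without control vehicle replicate 2). P4ha1 did not pass without control vehicle replicate 1 (adjusted p = 0.0793), control hemin replicate 1 (0.0743) or control hemin replicate 3 (0.0512). In the other direction, Hk1 passed without control hemin replicate 2 (log2 fold change -0.47, adjusted p = 0.0416), and without control hemin replicate 3 so did Pfkm (0.26, 0.0184), Pdk3 (-0.29, 0.00585) and Higd1a (0.46, 0.02).

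The second comparison asks the same of colonoids labelled KO. Of the 33 tested members, 10 rose, where 29.9% of all genes tested rose, and 10 fell, where 30.4% fell. Both counts are near the shares of all genes and say nothing particular about the members. The members' median was -0.0036, and that of all genes -0.0019. Those that rose were the glucose carrier Slc2a1, the enzymes Gpi1, Pfkp, Aldoa, Pgk1 and Pkm, and Hif1a, Adm, P4ha1 and Higd1a. Those that fell were Hk2, Aldoc, Pgam1, the regulators Pfkfb3, Pfkfb4 and Pdk1, and the HIF targets Vegfa, Ankrd37, Ndrg1 and Ero1l. By FPKM + 1, P4ha1 passed past 2-fold, upward, where 12.9% of all genes passed at that size, and by the ratio of mean FPKM so did Pfkfb3, downward (0.459).

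By TPM the median of all genes in the second comparison moved to -0.31, and 20.2% of the genes that passed rose, compared with 49.6% by FPKM. Then 2 members rose and 12 fell, Pfkl (adjusted p = 0.045) and Slc16a3 (0.0181) being added to the falls. Pfkp, which rose by FPKM, had a log2 fold change of -0.053 by TPM (adjusted p = 0.831). The other rises that ended were Slc2a1 (adjusted p = 0.115), Gpi1 (0.962), Aldoa (0.154), Pgk1 (0.147), Pkm (0.0924), Adm (0.114) and Higd1a (0.66). Relative to all genes the members' median stood at -0.033 by TPM and -0.0017 by FPKM. With Gm23935 removed first, the median of all genes was -0.21, 32.1% of the genes that passed rose, and 7 members rose and 16 fell. Without the 3 libraries rich in Gm23935, 11 rose and 10 fell, with a median of 0.035. Pgam1 no longer passed (adjusted p = 0.0513), and Slc16a3 (0.0492) and Epas1 (0.0451) did. With FPKM by summed fragments the median of all genes was -0.16, 33.5% of the genes that passed rose, and 7 members rose and 16 fell. Gpi1 (adjusted p = 0.267), Pfkp (0.404) and Higd1a (0.182) no longer passed, while Pfkl (0.0127), Tpi1 (0.0206), Eno1 (0.00494), Ldha (0.0305), Slc16a3 (0.0223) and Egln1 (0.0211) fell.

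Of the 20 calls in the labelled KO, 18 held whichever KO vehicle or KO hemin library was left out. The other calls kept their direction, at 0.29 to 0.45 for Gpi1 and 0.34 to 0.62 for Higd1a. Gpi1 did not pass without KO hemin replicate 1 (adjusted p = 0.0588) or replicate 3 (0.0518). Higd1a did not pass without KO vehicle replicate 2 (0.0843), KO vehicle replicate 3 (0.051), KO hemin replicate 1 (0.101) or KO hemin replicate 3 (0.076). Without KO hemin replicate 1, Gapdh (log2 fold change 3.10, adjusted p = 0.0358) and Slc16a3 (-0.66, 0.0454) passed.

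The difference between the 2 hemin responses was tested as an interaction. The response was higher in the labelled KO for 20 members, where 13.3% of all genes tested were, and lower for 1 (Pfkfb3), where 10.5% were. The shares of all genes moved when 1 library was left out: without control hemin replicate 3, 2656 of the 12740 genes were higher and 2070 lower, compared with 1695 and 1336 with all libraries, and 22 members were higher and 1 lower. By TPM 312 genes were higher and 597 lower. The median interaction was 0.62 over the members and 0.016 over all genes, and, as given above, 0.37 over the epithelial markers. Past 2-fold, 8 members passed, all upward (Aldoa, Pgk1, Pkm, Slc16a3, Egln3, Adm, Ankrd37 and Ndrg1), where 5.13% of all genes passed at that size in either direction. By TPM the median of all genes was -0.11, 34.3% of the genes that passed were higher in the labelled KO (55.9% by FPKM), and 7 members passed, all higher (Aldoa, Pgk1, Pkm, Egln3, Adm, Ankrd37 and Ndrg1). Relative to all genes the members' median was 0.59 by TPM and 0.60 by FPKM. With Gm23935 removed first, 38.8% of the genes that passed were higher in the labelled KO, with 19 members higher and 1 lower. With FPKM by summed fragments the median of all genes was -0.095, 36.3% of the genes that passed were higher, and 18 members were higher and 1 lower with a median of 0.48. Slc16a3 (adjusted p = 0.0519) and Pdk1 (0.185) no longer passed.

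Leaving out the 3 libraries rich in Gm23935 gave an interaction above 0 for 21 members and below 0 for 1, among those that passed, with a median of 0.81. Pdk1 (adjusted p = 0.0768) and Bnip3 (0.055) no longer passed, while Pfkl (0.00896), Aldoc (0.00758) and Epas1 (0.0361) did. Of the 21 interaction calls, 19 held whichever library was left out. The log2 values of the other calls lay between 0.90 and 1.31 for Slc16a3 and between 0.25 and 0.37 for Pdk1. Pdk1 passed only with all libraries, without control hemin replicate 3 or without KO hemin replicate 2 (highest adjusted p 0.101, without KO vehicle replicate 2). Slc16a3 did not pass in 8 of the 12 fits without 1 library (highest adjusted p 0.0848, without KO hemin replicate 1), and passed without control vehicle replicate 1, control hemin replicate 1 or 3, or KO hemin replicate 2. Without control hemin replicate 1, Aldoc (0.65, adjusted p = 0.00162), Gapdh (4, 0.028) and Egln1 (0.35, 0.0396) passed. Without control hemin replicate 3, Hif1a (0.44, 0.00489) and Ero1l (0.56, 0.00287) passed, and without KO hemin replicate 2, Pfkl (0.45, 0.0423) and Epas1 (0.35, 0.0494).

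**Figure D2:**
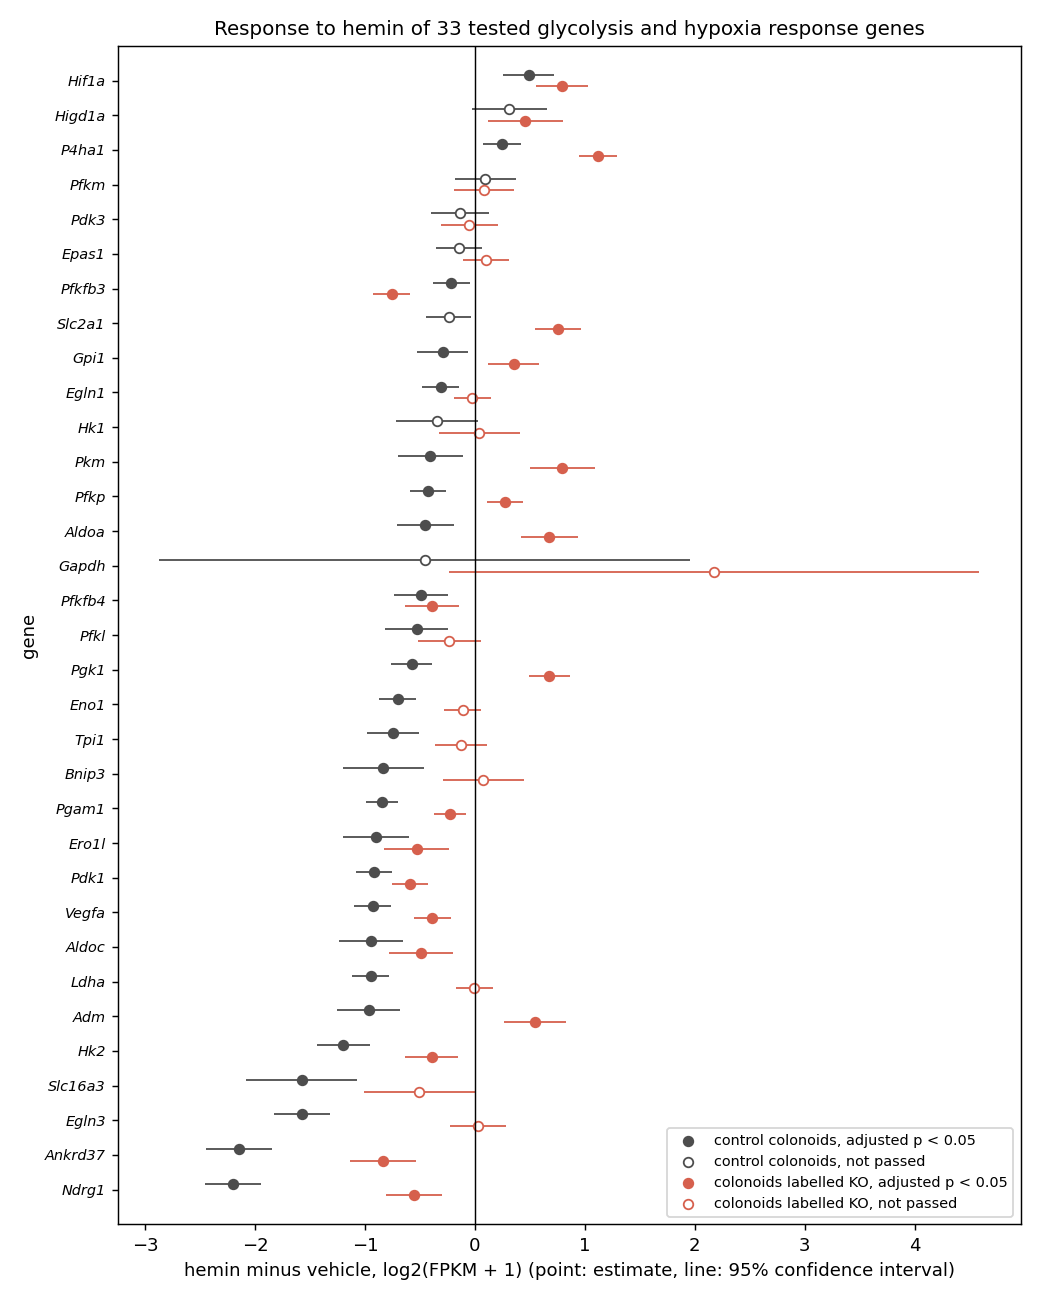
Log2 fold change (FPKM + 1) of the 33 tested members under hemin, with 95% confidence intervals, in control colonoids (dark) and colonoids labelled KO (red), filled where the gene passed and ordered by the response in control. Ndrg1, Ankrd37, Egln3 and Slc16a3 lie farthest to the left in control colonoids (-2.20, -2.14, -1.57 and -1.57).

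Compared under hemin, colonoids labelled KO were above control in 20 of 33 tested members (19.7% of all genes tested were higher) and below in 1, Epas1 (14.7% were lower). The members' median difference was 0.44, and that of all genes 0.038. With only the groups compared, 13 members were higher and 1 lower, since Gpi1, Pfkfb4, Aldoa, Tpi1, Eno1, Slc16a3 and Higd1a no longer passed. Egln3, Bnip3, Adm, Pgk1 and Hif1a passed past 2-fold, all upward, where 6.01% of all genes passed at that size, and by the ratio of mean FPKM so did Slc16a3 (2.50) and Ankrd37 (2.03). By TPM the median of all genes was 0.045 and 54.6% of the genes that passed were higher (57.2% by FPKM). By TPM 11 members were higher and 1 lower, since Slc2a1, Gpi1, Pfkfb4, Aldoa, Tpi1, Eno1, Ldha, Vegfa and Higd1a no longer passed (lowest adjusted p 0.0752, Ldha). With FPKM by summed fragments the median of all genes was -0.021, 46.1% of the genes that passed were higher, and 17 members were higher and 1 lower, since Gpi1 (0.0531), Eno1 (0.128) and Higd1a (0.0916) no longer passed.

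Without the 3 libraries rich in Gm23935, 21 members were higher under hemin and 1 lower, with a median of 0.61. Pfkfb4 no longer passed (adjusted p = 0.155), and Pfkp (0.044) and Aldoc (0.0176) did. Of the 21 calls, 17 held whichever control hemin or KO hemin library was left out. The others kept their direction, at 0.27 to 0.47 for Gpi1, 0.30 to 0.47 for Pfkfb4, 0.19 to 0.32 for Eno1 and 0.30 to 0.60 for Higd1a. Gpi1 did not pass without KO hemin replicate 1 (adjusted p = 0.0774) or 3 (0.0722). Pfkfb4 did not pass without control hemin replicate 1 (0.0759) or 2 (0.0564), or KO hemin replicate 1 (0.0877) or 2 (0.0506). Eno1 did not pass without control hemin replicate 1 (0.0612) or 3 (0.0591), or KO hemin replicate 1 (0.12) or 3 (0.121). Higd1a did not pass without control hemin replicate 2 (0.0759) or 3 (0.124), or KO hemin replicate 1 (0.174) or 3 (0.136).

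Other genes passed under hemin only when a library was left out. Without control hemin replicate 1 these were Aldoc (log2 difference 0.34, adjusted p = 0.00682) and Gapdh (2.74, 0.03). Without control hemin replicate 3 they were Pdk3 (0.21, 0.0393), Ndrg1 (0.34, 0.0339) and Ero1l (0.51, 0.000585). Without KO hemin replicate 2, Ndrg1 passed (0.36, 0.0402).

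Under vehicle the genotypes differed mostly the other way. Colonoids labelled KO were lower in 11 members (16.8% of all genes tested were lower) and higher in 5, Pfkfb3, Hif1a, Egln1, Egln3 and Bnip3 (17.4% were higher). Those lower were Slc2a1, Hk2, Pfkp, Aldoa, Eno1, Pkm, Ldha, Epas1, Ankrd37, Ndrg1 and P4ha1. The median was -0.20, and that of all genes 0.019. With only the groups compared, 8 were higher and 17 lower, and under hemin 13 and 1. Epas1 and Ndrg1 passed past 2-fold, both downward, where 6.80% of all genes passed at that size, while Egln3 stood at a ratio of mean FPKM of 2.00. By TPM the median of all genes was 0.16, 64.9% of the genes that passed were higher (50.9% by FPKM), and 5 members were higher and 3 lower. The calls of Slc2a1, Pfkp, Aldoa, Eno1, Pkm, Ldha, Ankrd37 and P4ha1 ended (lowest adjusted p 0.0671, Aldoa). The members' median relative to all genes was -0.21 by TPM and -0.22 by FPKM. With FPKM by summed fragments the median of all genes was 0.072, 60.3% of the genes that passed were higher, and 6 members were higher and 9 lower. Pkm (0.097) and P4ha1 (0.0503) no longer passed and Pfkfb4 did (0.32, adjusted p = 0.0359).

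Without the 3 libraries rich in Gm23935, 5 members were higher under vehicle and 13 lower, with a median of -0.23. Ankrd37 no longer passed (adjusted p = 0.152), while Gpi1 (0.0318), Pfkl (0.00412) and Aldoc (0.0222) did. Of the 16 calls, 13 held whichever control vehicle or KO vehicle library was left out. The folds of the others lay at -0.45 to -0.34 for Pkm, -0.50 to -0.36 for Ankrd37 and -0.31 to -0.23 for P4ha1. Pkm passed only with all libraries or, among these fits, without control vehicle replicate 1 (highest adjusted p 0.141, without control vehicle replicate 3). Ankrd37 passed only with all libraries or, among these fits, without control vehicle replicate 3 (highest adjusted p 0.106, without control vehicle replicate 1). P4ha1 did not pass without control vehicle replicate 2 (0.0826) or 3 (0.0728), or KO vehicle replicate 1 (0.0885) or 3 (0.0822). Pfkl passed without control vehicle replicate 1 (-0.42, 0.0453).

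Transport opens and closes the pathway. Slc2a1 (ENSMUSG00000028645, chr4:119108711-119137983 in mm10) encodes GLUT1, the basal glucose carrier of the plasma membrane. It measured 74.0, 80.6 and 80.3 FPKM in control vehicle, 66.2, 66.2 and 66.1 in control hemin, 57.9, 57.2 and 57.6 in KO vehicle and 108, 81.7 and 106 in KO hemin. The 4 groups did not overlap: KO hemin was the highest and KO vehicle the lowest. Hemin gave -0.24 ± 0.093 in control (adjusted p = 0.0536, not passed), while Slc2a1 rose in the labelled KO (0.76 ± 0.093, adjusted p = 3.83e-05). The interaction was 0.99 ± 0.13 (adjusted p = 3.19e-04; by TPM 0.86, adjusted p = 0.112, and over all alternatives 1.25e-05 to 0.112).

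Slc16a3 (chr11:120948480-120960868) encodes MCT4, a lactate exporter. It measured 5.79, 7.11 and 8.35 FPKM in control vehicle, 2.65, 1.49 and 1.14 in control hemin, 6.33, 6.52 and 6.62 in KO vehicle and 5.47, 2.74 and 5.03 in KO hemin. Control hemin was the lowest group, although KO hemin replicate 2 lay close to control hemin replicate 1. Slc16a3 fell in control (-1.57 ± 0.23, adjusted p = 1.93e-04), did not pass in the labelled KO (-0.51 ± 0.23, adjusted p = 0.0765), and was higher in the labelled KO under hemin (0.97 ± 0.23, adjusted p = 0.00706). The genotype difference under hemin no longer passed with only the groups compared. Its interaction of 1.07 ± 0.32 (adjusted p = 0.0350) did not pass in 8 of the 12 fits without 1 library, as given above.

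The counts by role stand beside the shares of all genes tested, of which 23.2% rose and 26.7% fell in control under hemin and 29.9% rose and 30.4% fell in the labelled KO. Among the 9 enzymes and isozymes of the preparatory phase, 7 passed in control under hemin, all of them falls (median -0.45). In the labelled KO 3 rose and 2 fell (median 0.041), which is near the shares of all genes. Hk2 (chr6:82725025-82774454), the inducible hexokinase that traps glucose as glucose-6-phosphate, measured 42.7, 49.1 and 48.6 FPKM in control vehicle, 21.1, 20.2 and 18.1 in control hemin, 25.9, 24.7 and 25.3 in KO vehicle and 21.99, 15.7 and 19.8 in KO hemin. Control vehicle stood apart from the other 9 libraries, the highest of which was KO vehicle replicate 1. Hk2 fell in control (-1.20 ± 0.11, adjusted p = 6.41e-06) and less in the labelled KO (-0.39 ± 0.11, adjusted p = 0.00883), with an interaction of 0.80 ± 0.15 (adjusted p = 0.00331; by TPM 0.67, adjusted p = 0.225, and over all alternatives 4.41e-04 to 0.225). Under vehicle it was already lower in the labelled KO (-0.86 ± 0.11, adjusted p = 1.01e-04).

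Aldoa (chr7:126795234-126800751), the aldolase that splits fructose-1,6-bisphosphate, was the most abundant member, with a mean of 601 FPKM. It measured 698, 703 and 739 FPKM in control vehicle, 601, 557 and 425 in control hemin, 442, 450.1 and 448 in KO vehicle and 776, 641 and 733 in KO hemin. Control hemin replicate 3 and the KO vehicle libraries were the lowest, and KO hemin and control vehicle overlapped. Aldoa fell in control (-0.45 ± 0.12, adjusted p = 0.00815) and rose in the labelled KO (0.68 ± 0.12, adjusted p = 4.68e-04), with an interaction of 1.13 ± 0.17 (adjusted p = 6.29e-04). The fall in control no longer passed with only the groups compared. The second Aldoa entry (ENSMUSG00000114515) lies next to the first and measured at most 2.39 FPKM, from 0 to 33 fragments per library. It fell in control (-1.24 ± 0.16, adjusted p = 7.66e-05) and, unlike the first, in the labelled KO (-1.01 ± 0.16, adjusted p = 2.36e-04), and its interaction did not pass (0.23 ± 0.22, adjusted p = 0.508).

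Pfkp, the platelet-type phosphofructokinase, which catalyses the committed step, measured 27.3, 27.9 and 29.1 FPKM in control vehicle, 22.6, 19.8 and 19.8 in control hemin, 17.9, 17.8 and 18.1 in KO vehicle and 23.6, 19.8 and 22.4 in KO hemin. KO vehicle was the lowest group. Pfkp fell in control (-0.42 ± 0.074, adjusted p = 6.71e-04) and rose in the labelled KO by FPKM (0.27 ± 0.074, adjusted p = 0.00799), but its direction there turned by TPM (-0.053). The interaction was 0.70 ± 0.10 (adjusted p = 7.16e-04; by TPM 0.57, adjusted p = 0.223, and over all alternatives 3.13e-04 to 0.223).

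The other preparatory members are given by their tests. Aldoc, a further aldolase, fell in both responses (-0.95 ± 0.13 in control, -0.49 ± 0.13 in the labelled KO). Tpi1, which interconverts the triose phosphates, ranged from 170.2 to 354 FPKM and fell in control (-0.75 ± 0.11) but gave -0.13 ± 0.11 in the labelled KO (adjusted p = 0.329; interaction 0.62 ± 0.15, adjusted p = 0.0125). Pfkl, the liver-type phosphofructokinase, fell in control (-0.53 ± 0.13), with -0.23 ± 0.13 in the labelled KO and no interaction that passed (0.30 ± 0.18, adjusted p = 0.275). Gpi1, the isomerase after hexokinase, gave -0.29 ± 0.11 in control and 0.35 ± 0.11 in the labelled KO (interaction 0.64 ± 0.15, adjusted p = 0.00980), the first lost in 3 and the second in 2 of 6 fits without 1 library. Hk1, the constitutive hexokinase, and Pfkm, the muscle-type phosphofructokinase at 1.79 to 3.41 FPKM, passed in none of the 5 tests.

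In the payoff phase, which returns ATP, 4 of the 5 tested enzymes passed in control under hemin, all of them falls (median -0.57), while 2 rose and 1 fell in the labelled KO. Pgk1 (chrX:106187100-106203699), which makes the first ATP of this phase, measured 429.6, 427 and 452 FPKM in control vehicle, 317, 282 and 280.4 in control hemin, 439, 440.5 and 436 in KO vehicle and 770.1, 619.8 and 725 in KO hemin. KO hemin was above and control hemin below every other library, and the vehicle groups overlapped. Pgk1 fell in control (-0.57 ± 0.083, adjusted p = 1.93e-04) and rose in the labelled KO (0.68 ± 0.083, adjusted p = 3.74e-05). Its genotype difference was 1.26 ± 0.083 under hemin (adjusted p = 6.84e-07) and 0.0082 ± 0.083 under vehicle (adjusted p = 0.955), with an interaction of 1.25 ± 0.12 (adjusted p = 3.45e-05).

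Pkm (chr9:59656368-59679375), pyruvate kinase, makes the final ATP. It measured 537, 619 and 632 FPKM in control vehicle, 493, 511 and 357 in control hemin, 444, 467 and 459 in KO vehicle and 844, 697 and 848 in KO hemin. KO hemin was the highest group without overlap, and control hemin overlapped KO vehicle. Pkm rose in the labelled KO (0.80 ± 0.13, adjusted p = 3.75e-04), and its interaction was 1.20 ± 0.19 (adjusted p = 9.86e-04). Its fall in control (-0.41 ± 0.13, adjusted p = 0.0262) was among the calls lost when a library was left out, and also with only the groups compared. Pgam1 and Eno1, the mutase and the enolase that act between Pgk1 and Pkm, fell in control (-0.84 ± 0.066 and -0.70 ± 0.078) by more than in the labelled KO (-0.23 ± 0.066, passed, and -0.11 ± 0.078, not passed). Their interactions were 0.61 ± 0.093 (adjusted p = 7.85e-04) and 0.59 ± 0.11 (adjusted p = 0.00281), and by TPM they were 0.47 and 0.44, of which neither passed (adjusted p = 0.357 and 0.432).

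Gapdh, the dehydrogenase that opens the payoff phase and a common reference gene, differed widely between libraries of the same group. It measured 16.9, 6.70 and 19.8 FPKM in control vehicle, 67.7, 3.97 and 2.26 in control hemin, 4.97, 4.65 and 5.19 in KO vehicle and 6.45, 28.8 and 86.1 in KO hemin. Within control hemin the highest library was 30.0 times the lowest, and its residual SD of 1.54 (log2) stood at percentile 100 of all genes tested, where the median was 0.13. None of its 5 tests passed, with an interaction of 2.64 ± 1.54 (adjusted p = 0.258). Of the 50-base stretches of its transcript, 90.4% also occur in other annotated genes, and 74 such genes share at least 10% of them. Those copies summed to a mean of 76.4 FPKM, led by Gm7336 at 23.3 FPKM. How the submitters' counting placed fragments that fit several genes is not stated.

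Other members share sequence with copies to a lesser degree. The shared part of the transcript was 68.0% for Pgk1, where the copy Pgk1-rs7 measured 4.004 FPKM. It was 62.4% for Bnip3, whose copies were at or under 0.172 FPKM, and 58.1% for Eno1, where Eno1b measured 26.3 FPKM. For Pgam1 it was 41.5% (Pgam1-ps2 at 4.03 FPKM), for Higd1a 36.6% and for Pkm 34.4% (Gm6560 at 19.6 FPKM). Tpi1 shared 15.5%, with Tpi-rs11 at 27.7 FPKM. Hk1, Hk2, Slc16a3, Pdk1, Pdk3, Epas1, Egln1, Egln3, Adm and P4ha1 were among those that shared 0.0%. In addition, 15.3% of the exon bases of Pkm overlap AC160637.1 on the same strand, at a mean of 11.8 FPKM. On the opposite strand, Hif1a overlaps Gm15283 (5.6% of its exon bases) and Pfkp overlaps Pitrm1 (5.58%, at 12.5 FPKM). Smaller opposite-strand overlaps were listed for Ankrd37 (3.7%), Tpi1 (1.24%) and Pfkm (0.54%). Their part in the values was not tested.

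Ldha (chr7:46841475-46855627), lactate dehydrogenase A, measured 687, 709 and 706 FPKM in control vehicle, 395, 349 and 349 in control hemin, 510.2, 514 and 517 in KO vehicle and 557, 464 and 521 in KO hemin. Control hemin was below every other library and control vehicle above, with KO vehicle and KO hemin overlapping between them. Ldha fell in control (-0.95 ± 0.077, adjusted p = 2.76e-06) and did not pass in the labelled KO (-0.0036 ± 0.077, adjusted p = 0.972; with FPKM by summed fragments -0.21, adjusted p = 0.0305). The interaction was 0.94 ± 0.11 (adjusted p = 1.25e-04; by TPM 0.80, adjusted p = 0.0776, and over all alternatives 2.43e-05 to 0.0776). Ldhb, the isozyme that favours turning lactate into pyruvate, was at 0 to 9 fragments per library, so that Ldha made up at least 99.96% of the lactate dehydrogenase level in each group.

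The regulators set the flow into and out of the pathway, and 3 of 4 fell in each hemin response. Pfkfb3, which makes the activator fructose-2,6-bisphosphate, measured 2.01, 2.08 and 2.06 FPKM in control vehicle, 1.74, 1.64 and 1.52 in control hemin, 3.38, 2.97 and 2.85 in KO vehicle and 1.52, 1.24 and 1.46 in KO hemin. KO vehicle was the highest group, with no overlap. Pfkfb3 fell in the labelled KO (-0.76 ± 0.077, adjusted p = 8.76e-06) and less in control (-0.21 ± 0.077, adjusted p = 0.0390). Its interaction, the only one below 0 that passed, was -0.54 ± 0.11 (adjusted p = 0.00434; by TPM -0.81, adjusted p = 0.0815, and over all alternatives 0.00169 to 0.0815). Pfkfb4, a relative of it, fell in both (-0.49 ± 0.11 in control and -0.39 ± 0.11 in the labelled KO).

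Pdk1, a kinase that shuts pyruvate dehydrogenase and so keeps pyruvate from the citric acid cycle, measured 27.4, 25.4 and 26.3 FPKM in control vehicle, 14.0, 12.4 and 14.2 in control hemin, 23.6, 22.9 and 23.2 in KO vehicle and 16.7, 14.0 and 14.6 in KO hemin. The hemin libraries of both genotypes lay below all vehicle libraries. Pdk1 fell in control (-0.92 ± 0.074, adjusted p = 2.72e-06) and in the labelled KO (-0.59 ± 0.074, adjusted p = 4.18e-05). The interaction was 0.32 ± 0.10 (adjusted p = 0.0466), lost in 10 of the 12 fits without 1 library. Pdk3, its relative, ranged from 8.66 to 12.9 FPKM and passed in none of the 5 tests.

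The HIF alpha subunits differed by genotype in opposite directions. Hif1a (chr12:73901375-73947530) measured 11.6, 9.99 and 10.1 FPKM in control vehicle, 13.9, 13.6 and 18.5 in control hemin, 20.2, 20.1 and 19.6 in KO vehicle and 34.6, 37.8 and 33.6 in KO hemin. The 4 groups did not overlap, in the order control vehicle, control hemin, KO vehicle and KO hemin. Hif1a rose in control (0.49 ± 0.11, adjusted p = 0.00286; by TPM 0.33, adjusted p = 0.204, and over all alternatives 0.00140 to 0.204) and in the labelled KO (0.79 ± 0.11, adjusted p = 7.35e-05), with an interaction that did not pass (0.30 ± 0.15, adjusted p = 0.179). It was higher in the labelled KO under vehicle (0.86 ± 0.11, adjusted p = 8.31e-05) and under hemin (1.17 ± 0.11, adjusted p = 8.58e-06). HIF-1 alpha is set largely at the protein level, which these data do not measure.

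Epas1 (chr17:86753907-86833410), the gene of HIF-2 alpha, measured 13.0, 14.9 and 15.1 FPKM in control vehicle, 12.9, 13.0 and 12.6 in control hemin, 6.45, 6.08 and 6.89 in KO vehicle and 8.02, 5.95 and 7.22 in KO hemin. Every labelled KO library lay below every control library, and within each genotype vehicle and hemin overlapped. The genotype difference was -1.03 ± 0.094 under vehicle (adjusted p = 7.96e-06) and -0.79 ± 0.094 under hemin (adjusted p = 7.30e-05). Hemin gave -0.14 ± 0.094 in control and 0.10 ± 0.094 in the labelled KO, neither of which passed. As a share of the summed FPKM of Hif1a, Epas1 and Hif3a, Hif1a was 41.0% ± 3.94 (SD, n = 3) in control vehicle and 54.0% ± 4.62 in control hemin. It was 70.9% ± 1.36 in KO vehicle and 82.9% ± 2.70 in KO hemin.

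Egln3 (chr12:54178981-54203860), the prolyl hydroxylase PHD3 and itself a HIF target, had by log2(FPKM + 1) the largest genotype difference under hemin among the members, while by the ratio of mean FPKM Adm (6.87) was above it (6.24). It measured 65.4, 59.9 and 62.7 FPKM in control vehicle, 24.2, 16.9 and 20.6 in control hemin, 122, 128 and 126 in KO vehicle and 141, 114 and 129.9 in KO hemin. Control hemin was the lowest group, control vehicle lay between, and every labelled KO library was above every control library, with KO vehicle and KO hemin overlapping. Egln3 fell in control (-1.57 ± 0.11, adjusted p = 1.24e-06) and gave 0.027 ± 0.11 in the labelled KO (adjusted p = 0.856), an interaction of 1.60 ± 0.16 (adjusted p = 5.14e-05). The genotype difference was 2.59 ± 0.11 under hemin (adjusted p = 2.52e-08) and 0.99 ± 0.11 under vehicle (adjusted p = 4.96e-05).

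Egln1, the gene of PHD2, the main oxygen-sensing hydroxylase, spanned 17.8 to 30.3 FPKM. It fell in control (-0.31 ± 0.076, adjusted p = 0.00554), gave -0.025 ± 0.076 in the labelled KO (adjusted p = 0.795) and had an interaction that did not pass (0.29 ± 0.11, adjusted p = 0.0781). Of the summed FPKM of the 3 hydroxylase genes, Egln3 was 53.3% ± 1.89 (SD, n = 3) in control vehicle, 30.3% ± 6.14 in control hemin, 67.0% ± 0.227 in KO vehicle and 67.6% ± 1.38 in KO hemin.

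The remaining 8 members are HIF targets of varied function, and 6 of them fell and 1 rose in control under hemin (median -0.91). In the labelled KO 4 fell and 3 rose (median -0.15). Ndrg1 (chr15:66929318-66969640), a stress and differentiation gene, measured 106, 105 and 111 FPKM in control vehicle, 24.1, 18.6 and 25.6 in control hemin, 41.1, 39.9 and 39.7 in KO vehicle and 30.6, 23.5 and 27.8 in KO hemin. Control vehicle stood far above every other group, and control hemin and KO hemin overlapped at the bottom. Ndrg1 fell in control (-2.20 ± 0.12, adjusted p = 1.25e-07) and in the labelled KO (-0.55 ± 0.12, adjusted p = 0.00168), with an interaction of 1.65 ± 0.16 (adjusted p = 4.59e-05). Under vehicle it was lower in the labelled KO (-1.39 ± 0.12, adjusted p = 3.55e-06), while under hemin the groups overlapped (0.26 ± 0.12, adjusted p = 0.113).

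Ankrd37, a small ankyrin-repeat gene, measured 21.8, 18.8 and 17.7 FPKM in control vehicle, 3.30, 2.86 and 4.89 in control hemin, 13.9, 13.7 and 14.5 in KO vehicle and 7.81, 7.70 and 6.88 in KO hemin. The hemin libraries of both genotypes lay below all vehicle libraries, and control hemin was the lowest group. Ankrd37 fell in control (-2.14 ± 0.14, adjusted p = 4.79e-07) and less in the labelled KO (-0.83 ± 0.14, adjusted p = 3.12e-04), with an interaction of 1.31 ± 0.19 (adjusted p = 6.15e-04).

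Adm, which encodes the vasoactive peptide adrenomedullin, was scarce, at 5 to 67 fragments per library. It measured 1.83, 1.52 and 1.39 FPKM in control vehicle, 0.325, 0.261 and 0.370 in control hemin, 1.02, 1.54 and 0.991 in KO vehicle and 2.14, 1.76 and 2.67 in KO hemin. Control hemin was the lowest group without overlap. Adm fell in control (-0.97 ± 0.13, adjusted p = 1.08e-04) and rose in the labelled KO (0.55 ± 0.13, adjusted p = 0.00358), with an interaction of 1.51 ± 0.18 (adjusted p = 1.71e-04). At these levels the added 1 FPKM shrinks the fold change, and the ratio of mean FPKM under hemin to vehicle was 0.201 in control.

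Bnip3 (chr7:138890836-138909519), a mitophagy receptor, measured 16.4, 11.9 and 13.0 FPKM in control vehicle, 8.13, 5.15 and 8.92 in control hemin, 24.5, 25.2 and 24.6 in KO vehicle and 29.2, 24.1 and 25.4 in KO hemin. Every labelled KO library lay above every control library. Bnip3 fell in control (-0.83 ± 0.17, adjusted p = 0.00173) and gave 0.076 ± 0.17 in the labelled KO (adjusted p = 0.715; interaction 0.91 ± 0.24, adjusted p = 0.0173). It was higher in the labelled KO under vehicle (0.82 ± 0.17, adjusted p = 0.00290) and under hemin (1.72 ± 0.17, adjusted p = 1.37e-05).

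P4ha1, a subunit of the collagen prolyl hydroxylase, measured 7.47, 8.22 and 8.08 FPKM in control vehicle, 10.0, 8.57 and 10.2 in control hemin, 6.13, 6.97 and 6.25 in KO vehicle and 16.1, 15.1 and 14.3 in KO hemin. KO hemin stood above all other libraries. P4ha1 rose in the labelled KO (1.12 ± 0.078, adjusted p = 4.91e-07) and by less in control (0.24 ± 0.078, adjusted p = 0.0231), where the call was lost in 3 of 6 fits without 1 library, and its interaction was 0.87 ± 0.11 (adjusted p = 2.28e-04; by TPM 0.79, adjusted p = 0.0727, and over all alternatives 1.49e-04 to 0.0727).

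Vegfa, the angiogenic growth factor, fell in control (-0.93 ± 0.075, adjusted p = 2.81e-06) and less in the labelled KO (-0.39 ± 0.075, adjusted p = 0.00109). It was at 15.4 to 16.96 FPKM in control hemin and 20.5 to 32.7 FPKM in the other libraries. The interaction was 0.54 ± 0.11 (adjusted p = 0.00388; by TPM 0.41, adjusted p = 0.462, and over all alternatives 5.62e-04 to 0.462). Ero1l, an oxidase of disulfide formation in the endoplasmic reticulum, fell in both responses (-0.90 ± 0.14 in control and -0.53 ± 0.14 in the labelled KO), and the interaction did not pass (0.37 ± 0.19, adjusted p = 0.198). Higd1a, a mitochondrial inner membrane protein, rose in the labelled KO (0.46 ± 0.15, adjusted p = 0.0246), with 0.31 ± 0.15 in control (adjusted p = 0.117) and an interaction of 0.14 ± 0.22 (adjusted p = 0.696).

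Isozyme shares give each gene as a percent of the summed FPKM of its family, a measure of RNA and not of enzyme. Slc16a1 held 88.2% of the lactate transporters in control vehicle and 95.1% in control hemin, and 90.6% and 93.5% in KO vehicle and KO hemin. Pfkfb2 held 43.5% of the PFKFB enzymes in control vehicle, 65.3% in control hemin, 34.3% in KO vehicle and 67% in KO hemin. The summed FPKM of the PFKFB family was 8.79, 9.31, 10.1 and 11.25 in the same order. Hk2 was 60.1% of hexokinase in control vehicle and 45.2% in control hemin, and 47.6% and 40.5% in KO vehicle and KO hemin. Pdk1 went from 54.4% ± 0.672 (SD, n = 3) of the PDH kinases in control vehicle to 34.9% ± 2.22 in control hemin. In the labelled KO it went from 50.4% ± 1.04 to 38.7% ± 0.888. Pfkl held 62.6% to 70.3% of phosphofructokinase in the group means. Eno3, the muscle enolase, was 1.61% of enolase in control vehicle and 0.80% in control hemin, and 17.3% and 2.81% in KO vehicle and KO hemin.

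**Figure D3:**
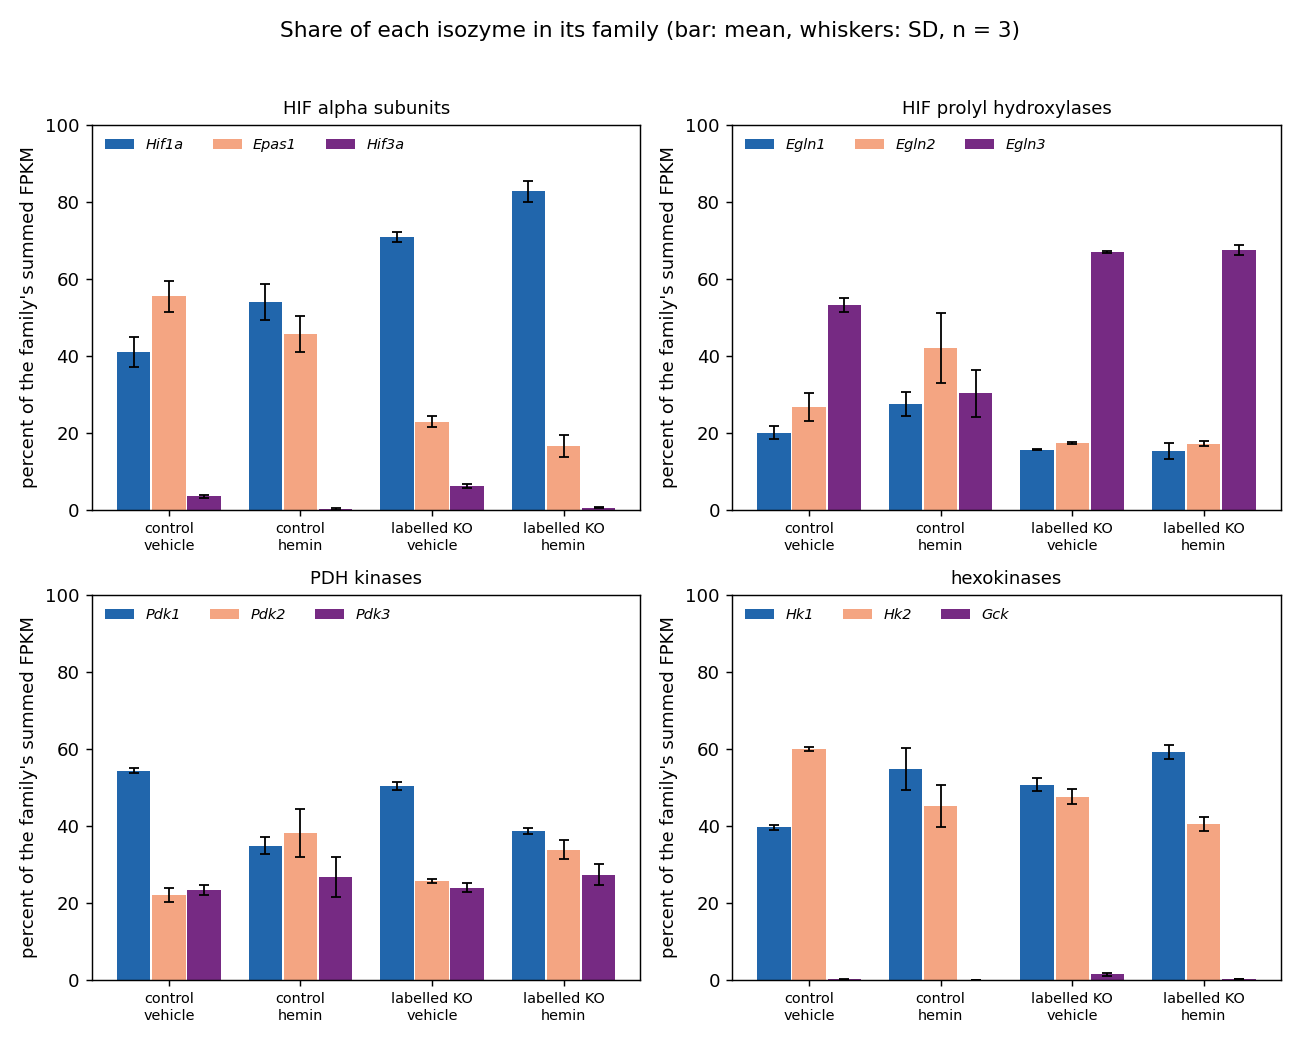
Mean share (percent of the family's summed FPKM, axis from 0 to 100) of 3 paralogs in each of 4 isozyme families, as bars for control vehicle, control hemin, KO vehicle and KO hemin, with the SD over 3 libraries. Hif1a takes 41.0% of the HIF alpha subunits in control vehicle and 82.9% in KO hemin.

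Further genes of the pathways gave a mixed picture. The counts of these lists are read against the shares of all genes tested, as given for the marker genes. A count near its share says nothing particular about a list. Of 43 other genes of glycolysis, glucose and lactate transport and pyruvate, 31 were tested. In control under hemin 9 rose and 12 fell (median -0.024). The rises were led by Pgam2 (1.56), Me1 (1.11) and Pfkfb2 (0.55), the falls by Eno3 (-1.36) and Pck1 (-1.06). Under hemin in the labelled KO 13 rose and 6 fell (median 0.14), led by Me1 (3.25) and by Eno3 (-2.86). Me1 encodes the cytosolic malic enzyme, a source of NADPH. Under hemin 15 were higher in the labelled KO and 6 lower (median 0.18), with the carrier Slc2a6 at -2.06. Under vehicle 7 were higher and 5 lower (median 0.024), with Eno3 at 3.16 and Me1 at -3.83. The interaction was positive for 7 and negative for 5 (median 0.21), with Me1 at 2.14 and Eno3 at -1.50.

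Of 17 other components of the HIF pathway 15 were tested, the symbols Tceb1 and Tceb2 being absent under these names. In control under hemin 7 rose and 2 fell (median 0.13), with rises of Cited2 (1.02), a HIF competitor, and Vhl (0.71), the recognition subunit of the HIF ubiquitin ligase, and a fall of Hif3a (-0.84). Among colonoids labelled KO 6 rose and 1 fell (median 0.12), with Cited2 at 0.88, Vhl at 0.71 and Hif3a at -1.16. Under hemin 3 passed between genotypes, all lower in the labelled KO, with Arnt2 at -1.45. Under vehicle 1 was higher (Hif3a, 0.53) and 3 were lower, with Arnt2 at -0.78. The interaction passed for 1, Arnt2 (-0.67).

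Of 39 other HIF targets 30 were tested. In control under hemin 7 rose, near the share of all genes, and 13 fell (median -0.22), with Cited2 at 1.02 and Plod1 at 0.81 above and Stc2 at -1.30 and Ddit4 at -1.09 below. Cited2 is also in the list of HIF pathway components above, so the lists are not separate sets. Colonoids labelled KO had 16 rises and, near the share of all genes, 9 falls (median 0.29), with Anxa1 at 1.37, Edn1 at 1.26 and Tff3 at -2.22. Under hemin 11 were higher in the labelled KO and 8 lower (median 0.084), with Nt5e at 2.00 and Car12 at -3.45. Under vehicle 3 were higher and 15 lower (median -0.34), with Nt5e at 1.72 and Car12 at -3.17. The interaction was positive for 11 and negative for 4 (median 0.28), with Ier3 at 1.81, Ddit4 at 1.47 and Tff3 at -1.93.

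Of 4 iron genes known as HIF-2 targets in the gut, 3 were tested, and each passed in both hemin responses. Tfrc, the transferrin receptor, fell in control (-3.28) and in the labelled KO (-1.56). Slc11a2, the iron importer DMT1, fell in control (-0.24) and in the labelled KO (-2.65), and under vehicle it was higher in the labelled KO (3.72). Slc40a1, ferroportin, rose in control (0.61) and in the labelled KO (1.34). Under hemin all 3 were higher in the labelled KO (0.78 to 1.86, median 1.31). The interactions were 1.72 for Tfrc, -2.41 for Slc11a2 and 0.73 for Slc40a1. Of 11 reference genes, led by Rplp0 at 1213 FPKM, 6 rose by FPKM and 2 fell in control under hemin (median 0.30) and 7 rose and 1 fell in the labelled KO (median 0.36). Under hemin 3 were higher in the labelled KO and 3 lower (median 0.033), under vehicle 1 and 3 (median -0.073), and the interaction was positive for 3 and negative for 1 (median 0.043).

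As 20 members had an interaction above 0 that passed, the members' promoters were read for the core of the hypoxia response element. RefSeq promoters (GRCm38.p6) were searched over the 250 bases before each start for ACGTG or GCGTG on both strands. The first of these lies inside the palindrome CACGTG, an E-box, which counts on both strands. Promoters were listed for 33 of the 35 members (not Epas1 and Ndrg1). Of these 33 genes, 30 had a match in a listed promoter (90.9%), where 41.5% of the 27025 genes in the table did. Of 47 member promoters 38 had a match (80.9%), where 38.6% of all 32851 did. At least 2 matches were found in 24 of the 47 (16.7% of all promoters) and at least 3 in 11 (6.6%). The background takes in all listed genes, expressed here or not, and the share among the 12740 genes tested was not computed. Both motifs hold a CG, and base composition was not matched. The contrast is therefore not a trait shown to be particular to the members. HIF targets entered the list partly because such elements are known in them, and a match is a description of letters, not a site of binding.

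The promoters of 5 of the members with an interaction that passed, chosen after their values were seen and not by rank, are printed so that the spacing of the matches can be seen, each 5′ to 3′ on the strand of its gene, with the matches in capitals. They lie at chr12:54203875-54204124 (Egln3, minus strand), chr7:138909507-138909756 (Bnip3, minus strand), chr7:46845554-46845803 (Ldha, plus strand), chrX:106186850-106187099 (Pgk1, plus strand) and chr7:110627407-110627656 (Adm, plus strand). Egln3 holds 1 match, Bnip3 and Ldha 5 each, and Pgk1 and Adm 2 each. Of the 2 promoters listed for Ldha the other holds 1. Matches were neither found in all members whose interaction passed nor limited to them: Gpi1 and Tpi1, whose interactions passed, have 0, while Pdk3 has 4 and Hif1a and Ero1l 3 each without an interaction that passed, as has 1 of the 2 promoters of Hk1. Among the members with larger interactions than Ldha and Bnip3 whose promoters are not printed, Pkm has 0 and 1 matches in its 2 promoters and Aldoa 0, 1 and 1 in its 3, while Slc2a1 and Slc16a3 hold 2 each and Ankrd37 holds 4.
Egln3: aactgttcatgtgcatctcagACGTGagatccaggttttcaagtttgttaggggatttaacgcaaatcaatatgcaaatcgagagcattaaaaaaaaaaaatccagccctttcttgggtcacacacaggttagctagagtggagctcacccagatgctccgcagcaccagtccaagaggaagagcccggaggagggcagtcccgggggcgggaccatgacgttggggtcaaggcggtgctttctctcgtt
Bnip3: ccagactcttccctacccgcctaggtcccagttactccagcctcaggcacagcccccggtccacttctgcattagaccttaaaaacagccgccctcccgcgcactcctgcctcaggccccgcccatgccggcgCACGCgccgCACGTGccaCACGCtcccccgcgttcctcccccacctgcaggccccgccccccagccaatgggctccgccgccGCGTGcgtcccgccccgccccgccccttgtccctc
Ldha: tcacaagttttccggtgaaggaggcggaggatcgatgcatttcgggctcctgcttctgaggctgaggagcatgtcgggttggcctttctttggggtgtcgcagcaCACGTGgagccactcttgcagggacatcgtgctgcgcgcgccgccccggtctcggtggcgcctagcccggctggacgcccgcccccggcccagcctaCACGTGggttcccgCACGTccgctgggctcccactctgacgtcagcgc
Pgk1: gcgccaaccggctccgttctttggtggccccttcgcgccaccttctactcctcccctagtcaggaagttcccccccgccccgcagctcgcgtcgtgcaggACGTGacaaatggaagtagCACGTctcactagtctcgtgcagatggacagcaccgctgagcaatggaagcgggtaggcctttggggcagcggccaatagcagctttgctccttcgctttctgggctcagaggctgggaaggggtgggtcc
Adm: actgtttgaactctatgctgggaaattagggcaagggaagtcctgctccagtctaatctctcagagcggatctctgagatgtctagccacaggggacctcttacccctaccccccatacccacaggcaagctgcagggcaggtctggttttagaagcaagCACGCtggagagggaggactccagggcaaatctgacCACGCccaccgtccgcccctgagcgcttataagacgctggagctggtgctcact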

How the data were processed

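Poly(A) RNA of 12 colonoid libraries was sequenced, 3 for each of 4 groups. The authors deposited FPKM for 54532 genes. Their notes name fastp, HISAT2 2.0.5, featureCounts 1.5.0-p3 and mm10, without saying how fragments that fit several genes were placed. Fragments were recovered as FPKM times gene length, divided by the smallest nonzero such product of the library, which was taken as the unit of a fragment. They were whole numbers in all libraries (tolerance 0.01), and their sums, 11648801 to 25101868, are the depths. The FPKM imply other library sizes, and a median-of-ratios factor computed on them was equal, 1.01, in all 12 libraries, so a scaling between libraries is already in them. No pair of replicate libraries was a duplicate.

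Values were tested as log2(FPKM + 1) in R 4.3.3 with limma 3.58.1 and the data.table package 1.17.8: group means, a moderated trend, 8 residual degrees of freedom, genes with at least 1 FPKM in at least 3 libraries, and Benjamini-Hochberg adjustment over 12740 genes. The test was also run on simulated data, but no outcome of that run is given here and no result rests on it. Promoters, sequence sharing and figures used Python 3.11.15, pandas 2.3.3, numpy 2.4.6 and matplotlib 3.10.9. Sharing was counted in 50-base stretches of a protein-coding transcript, with GENCODE M21 read on the same build (98.3% of 54409 matched genes had the same start and end).

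Named are the 35 members, Hmox1, isozymes of members, the most abundant gene of each marker list and, from each further pathway list and comparison, at most the 3 largest rises and 3 largest falls among genes that passed. Gm23935, the other colonocyte markers, marker genes at the floor of 3 fragments, copies of members and overlapping genes were named after their values were seen. The members and lists were chosen with earlier results of these data known. Alternatives were a pseudocount of 0.1, no filter, a mean of at least 5 FPKM, TPM, TPM without Gm23935, median-of-ratios scaling (void, the factors being equal), a replicate block, no trend, only the groups compared, limma-voom, each library left out, and, chosen after seeing the data, the 3 libraries with over 10% of Gm23935 left out together and FPKM by summed fragments (recovered fragments divided by gene length and the library's sum). Limma-voom used the library sizes that the FPKM imply.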

Additional observations from a re-analysis of the deposited data

Results flagged for a closer look

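In 21 members the hemin response differed between control colonoids and colonoids labelled KO by the test of the interaction itself, as log2 differences of FPKM + 1. It was higher in the labelled KO for 20 members and lower for 1, where 13.3% of all 12740 genes tested were higher and 10.5% lower (1695 and 1336 genes, or 2656 and 2070 without control hemin replicate 3). For transport they were 0.99 for Slc2a1 and 1.07 for Slc16a3. For the preparatory enzymes they were 0.80 for Hk2, 0.64 for Gpi1, 0.70 for Pfkp, 1.13 for Aldoa and 0.62 for Tpi1. For the payoff enzymes and lactate dehydrogenase they were 1.25 for Pgk1, 0.61 for Pgam1, 0.59 for Eno1, 1.20 for Pkm and 0.94 for Ldha. For the regulators they were 0.32 for Pdk1 and -0.54 for Pfkfb3, the only difference below 0 among those that passed. For the hydroxylase gene Egln3 the difference was 1.60. For the other hypoxia response genes the differences were 0.54 for Vegfa, 1.51 for Adm, 1.31 for Ankrd37, 0.91 for Bnip3, 1.65 for Ndrg1 and 0.87 for P4ha1. The adjusted p-values lay between 3.45e-05 (Pgk1) and 0.0466 (Pdk1). By TPM 7 of the 21 passed (Aldoa, Pgk1, Pkm, Egln3, Adm, Ankrd37 and Ndrg1). With FPKM by summed fragments 18 were higher and 1 lower. With 1 library left out, Slc16a3 did not pass in 8 of the 12 fits and Pdk1 in 10. What set the 2 responses apart was not tested.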

How the results depend on the processing

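Among results that passed, direction turned in 1 under the alternatives run: the rise of Pfkp in the labelled KO became -0.053 by TPM. Of 170 tests of named genes, TPM ended 42 calls, ended and turned 1 and added 2, TPM without Gm23935 ended 10 and added 8, FPKM by summed fragments ended 11 and added 8, and leaving out the 3 libraries rich in Gm23935 ended 7 and added 11. No filter ended 21, and only the groups compared ended 12 and added 11 of 136. The pseudocount, the absent trend and the replicate block ended 1, 3 and 6 calls, limma-voom added 6, and the higher filter added 1 of 145. Median-of-ratios scaling had the same factor in every library, so it could change no call and tests nothing. The causes were not tested, except that no filter tests more genes and leaving out libraries leaves fewer samples.

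The members past 2-fold numbered 5 in control, 1 in the labelled KO, 5 between genotypes under hemin, 2 under vehicle and 8 in the interaction. In control under hemin, 1 member rose with no filter, with TPM without Gm23935, with FPKM by summed fragments, with only the groups compared and without the rich libraries, and 0 rose by TPM (0 also at an unadjusted limma p under 0.05). The median there was -0.77 by TPM, -0.68 by TPM without Gm23935, -0.63 by limma-voom and -0.68 without the rich libraries. In the labelled KO, 2 rose by TPM, 16 fell by TPM without Gm23935 and 16 fell with FPKM by summed fragments, with medians of -0.34, -0.23 and -0.21. Under hemin, 13 members were higher in the labelled KO with no filter, 11 by TPM and 13 with only the groups compared, and the median without the rich libraries was 0.61. Under vehicle, 3 were lower by TPM with a median of -0.049, and with only the groups compared 8 were higher and 17 lower. In the interaction, 7 were higher by TPM, with a median of 0.47 (0.50 by TPM without Gm23935, 0.48 with FPKM by summed fragments, 0.81 without the rich libraries), and 0 were lower by TPM (1 at an unadjusted limma p under 0.05) and at a mean of at least 5 FPKM (0), a filter that removes Pfkfb3.

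Leaving out 1 library of the groups compared at a time gave 1 to 3 members that rose in control (1 without control vehicle replicate 1 or control hemin replicate 1). The medians were then -0.63 to -0.54 in control, 0.38 to 0.53 between genotypes under hemin and 0.56 to 0.71 in the interaction. Of all 12740 genes, 1695 were higher and 1336 lower in the interaction with all libraries, 2656 and 2070 without control hemin replicate 3, 312 and 597 by TPM, and 1162 and 2038 with FPKM by summed fragments. By TPM the rises among all genes went from 2953 to 854 in control and from 3815 to 1191 in the labelled KO (2458 by TPM without Gm23935). Those higher and lower went from 2509 and 1874 to 1151 and 958 under hemin (1563 and 1165 with only the groups compared) and from 2220 and 2142 to 1472 and 797 under vehicle. A mean of at least 5 FPKM leaves 7606 genes, of which 2113 fell in control (3406 in the main fit), 2190 fell in the labelled KO (3879), 1026 were lower under hemin, 1219 were higher under vehicle and 644 were lower in the interaction. Leaving out the libraries rich in Gm23935 and FPKM by summed fragments were chosen after seeing the data.

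With a replicate block, 2 members rose and 22 fell in control, 10 and 10 in the labelled KO, 19 and 1 under hemin, 5 and 9 under vehicle, and 19 and 1 in the interaction. The replicate numbers did not pair: the same number in another group correlated best in 12 of 36 cases (mean r -0.043 over 18 pairs, 0.023 over the 36 others). Depth limits Adm most among the tested members, the second Aldoa entry aside, and Eno2 and Ldhb were too scarce to test.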
